A study of Mus musculus with 17 samples.

Results

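CC chemokines are small secreted proteins named for 2 adjacent cysteines, and this account follows 8 of them that attract monocytes and macrophages, together with 1 of their receptors. The genes Ccl2, Ccl3, Ccl4, Ccl5, Ccl6, Ccl7, Ccl8, Ccl9 and Ccr2 were taken by symbol from the deposited table of read counts, and all 9 were present among its 21931 genes. All 9 also passed the filter on low counts that left 13005 genes to test. The tumors were MC38, a mouse colon cancer cell line of labelled genotype WT, grown under the skin, and so outside the colon, of C57BL/6J mice that were 6 to 8 weeks old at implantation. In the cryoablation group (Cryo, n = 8) the tumor on 1 side was frozen through cryoprobes on day 7 after implantation, and the untreated tumor on the opposite side was taken 5 days later. In the control group (Con, n = 9) the tumors were labelled with the same day and no freezing. Groups follow the labels, whereas the study's text gives the 2 group sizes the other way round, and exchanged labels would turn the sign of every difference between groups. The study gives Hba-a1, Hbb-bs, Hbb-bt, S100A8 and S100A9 as down-regulated in control against cryoablation. By the labels these genes had higher fitted values in Cryo here, though 0 passed at an adjusted p under 0.05. Each tumor was 1 bulk RNA library, so the tumor cells and all host cells in it were read together, and a lower value may come from fewer cells of a type or from less RNA per cell, which cannot be told apart.

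CC chemokines act through G protein-coupled receptors on leukocytes, which move up the gradient of their ligand. CCR2 is the receptor that brings inflammatory monocytes out of the bone marrow and into tissue, and CCL2 and CCL7 are its main ligands, whereas CCL8 of the mouse acts mainly through CCR8. CCL6 and CCL9 are rodent ligands of CCR1 made largely by myeloid cells, and CCL3 and CCL5 also act through CCR1. In tumors, monocytes recruited in this way can become tumor-associated macrophages, which may restrain or help tumor growth.

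In the deposited table, the 8 ligand genes lay in 2 stretches of chromosome 11. Ccl2 (81926397 to 81928279), Ccl7 (81936538 to 81938351) and Ccl8 (82006011 to 82007625), all on the plus strand, spanned 81.2 kb. After a gap of 1409 kb, Ccl5 (83416604 to 83421344, minus), Ccl9 (83463745 to 83469462, minus), Ccl6 (83478708 to 83483913, minus), Ccl3 (83538670 to 83540181, minus) and Ccl4 (83553410 to 83555509, plus) spanned 139 kb. Ccr2 lay on chromosome 9 (123901987 to 123913594, plus). None of the 9 positions equalled that of GENCODE M21 on GRCm38, the build that the submitters' processing notes name, so these are the table's own coordinates. The Ccl2 row overlapped Gm17268 on the minus strand, which had 0 counts in all 17 tumors, and the other 8 rows overlapped 0 genes. In the GENCODE M21 protein-coding transcripts, no stretch of 50 bases was shared between any 2 of the 9 genes.

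Promoter windows, from 250 bases before to 50 bases after the annotated start, were found in RefSeq for 5 of the 9 genes (Ccl3, Ccl6, Ccl8, Ccl9 and Ccr2; GRCm38.p6). The 3 below are shown because the pairs among Ccl6, Ccl8 and Ccl9 had the 3 highest Pearson correlations over all 17 tumors, described further on. Each is written 5′ to 3′ on the strand of its gene. They are Ccl8 (chr11:82114935-82115234, plus), Ccl6 (chr11:83593038-83593337, minus) and Ccl9 (chr11:83578587-83578886, minus). In Ccl8 the capitals mark the letters TATAAA of a TATA box, found on either strand in 13.6% of the 32851 windows of the same length. In Ccl6 and Ccl9 the capitals mark every run of at least 10 bases that the windows of these 2 genes share, 46 bases in Ccl6 and 40 in Ccl9.
Ccl8: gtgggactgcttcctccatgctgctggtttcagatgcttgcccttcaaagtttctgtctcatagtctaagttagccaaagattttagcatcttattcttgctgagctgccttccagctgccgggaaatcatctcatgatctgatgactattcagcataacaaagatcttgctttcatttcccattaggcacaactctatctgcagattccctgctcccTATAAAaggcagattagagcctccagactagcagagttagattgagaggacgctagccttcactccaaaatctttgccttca
Ccl6: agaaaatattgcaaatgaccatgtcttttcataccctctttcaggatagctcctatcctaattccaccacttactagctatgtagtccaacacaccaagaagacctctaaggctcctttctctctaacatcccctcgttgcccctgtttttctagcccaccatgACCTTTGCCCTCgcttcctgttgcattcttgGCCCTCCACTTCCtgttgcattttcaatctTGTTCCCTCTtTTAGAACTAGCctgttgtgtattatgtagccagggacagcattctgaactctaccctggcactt
Ccl9: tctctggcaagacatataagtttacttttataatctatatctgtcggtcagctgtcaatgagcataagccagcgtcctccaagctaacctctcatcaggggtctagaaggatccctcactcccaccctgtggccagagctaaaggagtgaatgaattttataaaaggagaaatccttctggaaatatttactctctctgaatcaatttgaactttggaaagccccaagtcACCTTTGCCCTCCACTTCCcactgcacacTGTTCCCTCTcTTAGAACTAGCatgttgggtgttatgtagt

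The longest run common to the Ccl6 and Ccl9 windows had 13 bases and was found, on either strand, in 6 of the 32851 windows (0.0183%). Between the other pairs of these 5 windows, the longest common run had 7 to 9 bases. Counted on either strand, the letters TATAAA had 3 matches in the Ccl9 window, some of them overlapping, and 0 matches in those of Ccl6, Ccl3 and Ccr2. These are matches of letters and not measured binding sites.

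The total count ranged from 13524899 to 17898672 per tumor. Counts of the 9 genes were lowest for Ccl4 (19 to 207) and highest for Ccl8 (533 to 15474), so that each gene was detected in all 17 tumors. On the first principal component of the 500 most variable genes, which held 62.4% of their variance, Cryo 2, 4 and 5 lay at 25.9, 32.2 and 31.4, apart from the other 14 tumors at -17.0 to 9.43. Counts of calls for the group differences, the correlations and the marker lists are therefore also given without these 3 tumors. Markers of colon epithelium were low, with a sum over 7 genes of 10.0 to 123 CPM (counts scaled to a common library total) and Cdx2 at 0 counts in all 17 tumors, whereas 6 fibroblast genes summed to 4361 to 11087 CPM. Nothing in the labels says which tumors shared a mouse cohort or day, so p-values measure the spread between these 17 tumors.

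Per gene length, the ligands of monocyte receptors differed widely in level. By the median of the deposited FPKM (fragments scaled by gene length and library total) over 17 tumors, Ccl8 stood highest at 351 (66.1 to 2044), followed by Ccl2 at 152 (104 to 280), Ccl7 at 132 (81.6 to 342) and Ccl6 at 126 (47.9 to 312). Ccl5 at 41.3 (8.76 to 169) and Ccl9 at 33.7 (18.9 to 83.4) lay in the middle. Ccl4 at 8.03 (2.02 to 19.8), the receptor Ccr2 at 7.75 (4.52 to 19.9) and Ccl3 at 5.89 (2.19 to 46.1) were lowest. The order was tested between neighbours on log2(FPKM + 0.1) within each tumor, by 100000 sign changes with adjustment over the 8 neighbouring pairs. Ccl8 exceeded Ccl2 in 13 of 17 tumors (mean log2 difference 0.995, permutation test, adjusted p = 0.0126), although without Cryo 2, 4 and 5 the adjusted p was 0.0759. Ccl2 exceeded Ccl7 in 13 of 17 tumors by 0.22 (permutation test, adjusted p = 0.0261). Ccl6 exceeded Ccl5 and Ccl9 exceeded Ccl4 in 17 of 17 tumors, by 1.69 and 2.15 on the log2 scale (permutation test, adjusted p = 0.00016 for each). The other neighbours did not differ beyond their spread: Ccl7 and Ccl6 (0.22 on the log2 scale, permutation test, adjusted p = 0.0678), Ccl5 and Ccl9 (0.904), Ccl4 and Ccr2 (0.904), and Ccr2 and Ccl3 (0.406).

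The size and make-up of the ligand pool varied widely between tumors. The summed FPKM of the 8 ligands ran from 377 in Con 6 to 3257 in Con 4, with a median of 905 in the control group, and from 511 in Cryo 1 to 2375 in Cryo 4, with a median of 760 in the cryoablation group. The range of the cryoablation group lay within that of the control group. Ccl8 made up between 17.6% and 67.0% of this sum (median 38.9%) and was the top ligand in 13 tumors, 7 Con and 6 Cryo. Ccl2 was the top ligand in the other 4 tumors, 2 of each group, and its share ranged from 8.59% to 34.8%. The shares of Ccl7 (10.5% to 23.5%) and Ccl6 (6.76% to 18.3%) moved less. Cryo 7 had the only pool in which Ccl3 exceeded 2% of the sum, at 6.48%.

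**Figure D1:**
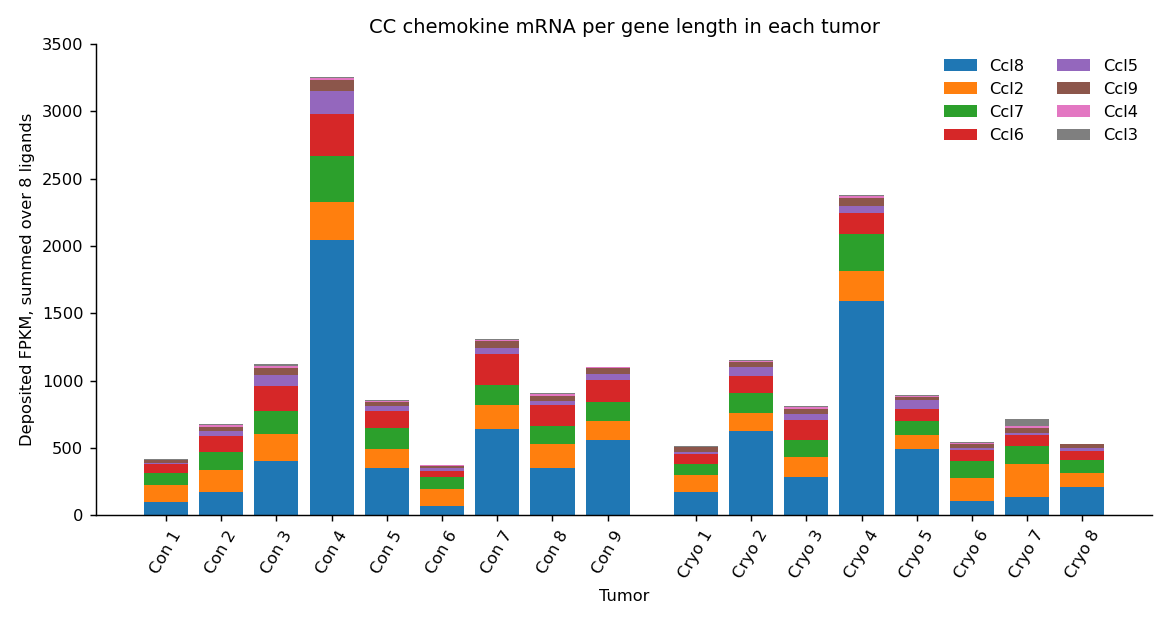
Stacked bars show, for each of 17 tumors on the x axis, the deposited FPKM of the 8 CC ligands (y axis, linear from 0, 1 color per gene). Con 4 (3257) and Cryo 4 (2375) stand above the other 15 tumors, and Ccl8 makes up 62.8% and 67.0% of their bars.

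The question of the comparison was whether cryoablation of a tumor is followed, in the untreated distant tumor, by a change in the chemokines that draw in monocytes and macrophages. In these libraries no such change was detected for any of the 9 genes, ligand or receptor. The control and cryoablation groups overlapped for every gene, 3 of the 9 fitted changes lay between -0.01 and 0.01 on the log2 scale, and the remaining 6 lay between -0.45 and 0.40. In edgeR's quasi-likelihood test over 13005 genes, 0 of the 9 genes had a Benjamini-Hochberg adjusted p under 0.05, beside 0 of all genes (0%). At an unadjusted p under 0.05 the count was 0 of 9, beside 4.91% of all genes tested, and with a log2 fold change beyond 1 in either direction required as well it was 0 of 9, beside 0.492%. The median log2 fold change of the 9 genes was -0.0088, and that of all genes tested was -0.0088. DESeq2 gave 0 of 9 at an unadjusted p under 0.05, beside 6.77% of all genes. Limma's voom with sample quality weights gave 3, described with their genes below, beside 10.1% of all genes, and 0 at an adjusted p. Without Cryo 2, 4 and 5, edgeR gave 3 (Ccl5, Ccl6 and Ccl8), beside 2.45%, and without Con 6 it gave 1 (Ccl6), beside 3.56%. With an offset for gene length it gave 1 (Ccl6), beside 5.44%, and with this offset and the replicate number as a block 2 (Ccl6 and Ccl7), beside 4.55%. All of these were lower in the cryoablation group, and 0 passed at an adjusted p. Values per tumor are CPM normalized by the trimmed mean of M values (TMM), and differences are log2 fold changes of Cryo over Con with their standard error (SE).

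**Figure D2:**
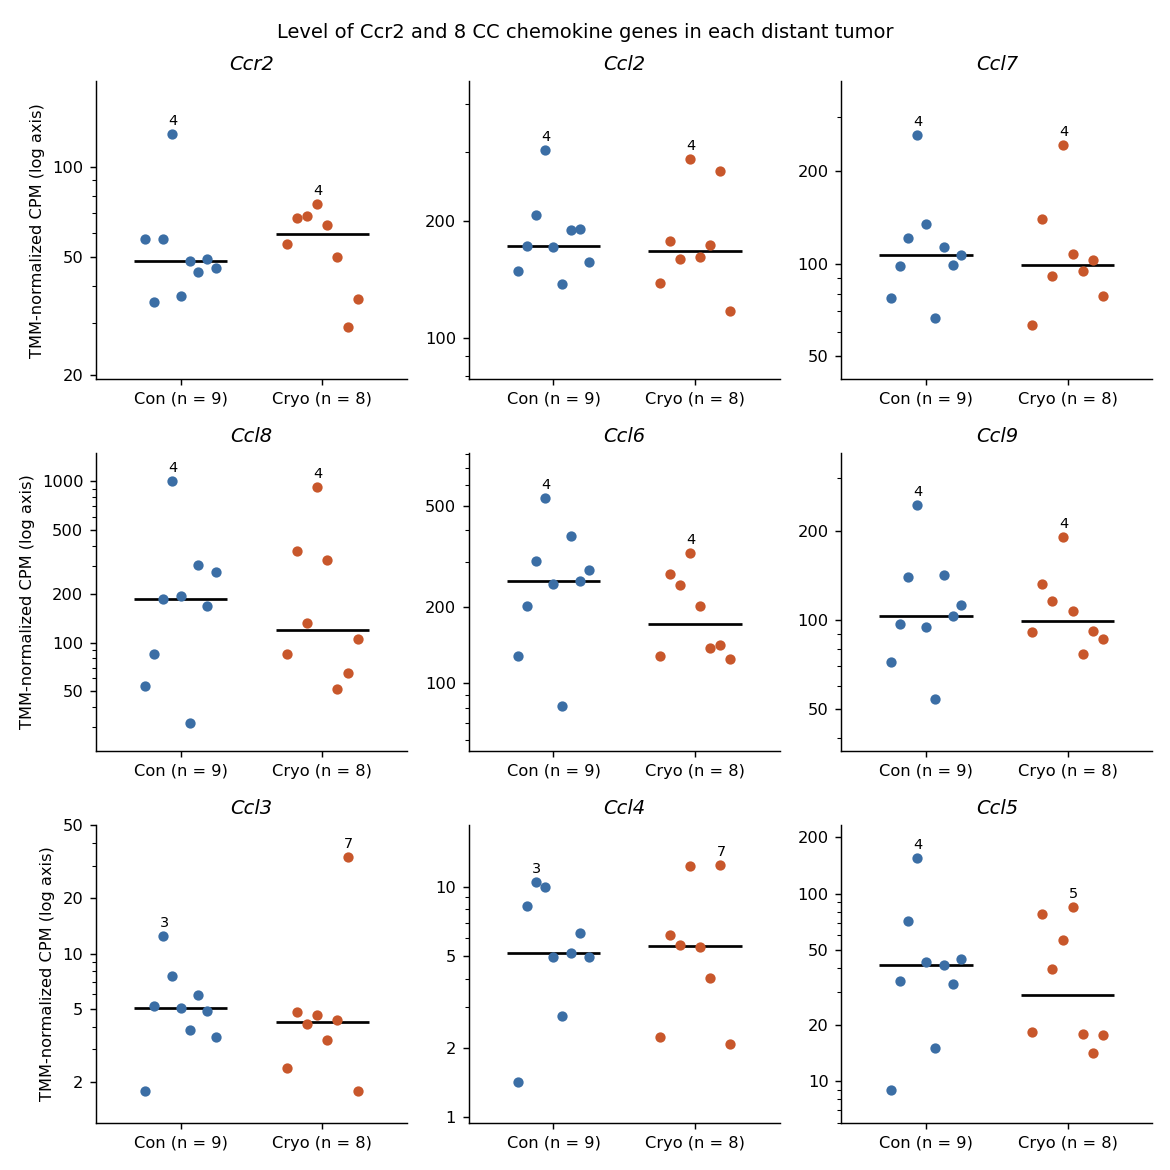
Each of 9 panels shows the TMM-normalized CPM of a gene (y axis, log scale, range set per panel) in the control (blue, n = 9) and cryoablation (orange, n = 8) tumors, with a bar at the group median and the number of the highest tumor in each group. The groups overlap in every panel, and Con 4 is the highest of all 17 tumors in 7 of them.

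Ccr2, the receptor of the CCL2 axis, ranged in the control group from 35.2 CPM to 129 CPM (median 48.2) and in the cryoablation group from 29.1 CPM to 75.2 CPM (median 59.5). Con 4 alone lay above all cryoablation tumors, and the control median was exceeded by 6 of 8 cryoablation tumors. The log2 fold change was -0.01 (SE 0.24, 95% interval -0.49 to 0.47, edgeR adjusted p = 0.994), and the two-sided exact permutation test on log2 CPM gave p = 0.878. Without Con 4 the log2 fold change was 0.25 (SE 0.18, edgeR adjusted p = 0.844).

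Ccl2, the chief CCR2 ligand, showed the narrowest range of the 8 ligands, 2.60-fold over all 17 tumors. It ran from 138 CPM to 305 CPM in the control group (median 173) and from 118 CPM to 288 CPM in the cryoablation group (median 168). Con 4, Cryo 4 and Cryo 7 were the 3 high tumors, and the groups overlapped. Its log2 fold change was -0.01 (SE 0.18, 95% interval -0.37 to 0.35, edgeR adjusted p = 0.989; exact permutation test, p = 0.864). Ccl7, the second CCR2 ligand, ran from 66.9 CPM to 263 CPM in the control group (median 107) and from 63.1 CPM to 244 CPM in the cryoablation group (median 98.9). Con 4 and Cryo 4 were again highest, and Con 6 and Cryo 1 lowest. Its log2 fold change was -0.06 (SE 0.27, 95% interval -0.59 to 0.47, edgeR adjusted p = 0.934; exact permutation test, p = 0.805).

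Ccl8, the CCR8 ligand, varied most, with a 31.4-fold range over the 17 tumors. Its values ran from 31.9 CPM in Con 6 to 1001 CPM in Con 4 (control median 188) and from 51.9 CPM in Cryo 6 to 919 CPM in Cryo 4 (cryoablation median 119). A single tumor in each group stood far above the rest, with the next values at 304 CPM in Con 7 and 372 CPM in Cryo 2. The log2 fold change was 0.01 (SE 0.65, 95% interval -1.27 to 1.28, edgeR adjusted p = 0.997; exact permutation test, p = 0.991), so that a change of up to these bounds was not detectable. The sign followed single tumors: the log2 fold change was 0.65 without Con 4 and fell to -0.65 without Cryo 4. Without Cryo 2, 4 and 5 it was -1.55 (SE 0.65, unadjusted p = 0.0307, edgeR adjusted p = 0.941). These 3 tumors, with Con 4, also had the 4 highest sums of macrophage markers, 2584 to 3630 CPM against 768 to 1991 CPM in the other 13 tumors. With a macrophage score as a covariate, the log2 fold change of Ccl8 was 0.42 (SE 0.40, edgeR adjusted p = 0.573). The part of these markers in the Ccl8 values was not tested beyond this fit.

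Ccl6 and Ccl9, the rodent CCR1 ligands, lie side by side among the 9 genes. Ccl6 ran from 81.1 CPM to 538 CPM in the control group (median 253) and from 124 CPM to 325 CPM in the cryoablation group (median 171). Cryo 2 and Cryo 4 exceeded the control median, and the other 6 cryoablation tumors did not. Its log2 fold change of -0.45 (SE 0.30, 95% interval -1.04 to 0.15) did not pass the test (edgeR adjusted p = 0.729; exact permutation test, p = 0.313). The value was -0.26 without Con 4, -0.77 under voom (unadjusted p = 0.0105, limma adjusted p = 0.466) and -0.80 without Cryo 2, 4 and 5 (unadjusted p = 0.0357, edgeR adjusted p = 0.941). The 5 monocyte markers had a median log2 fold change of -0.79, with 0 of 5 at an unadjusted p under 0.05, and their part in the Ccl6 values was not tested. Ccl9 ran from 54.3 CPM to 244 CPM in the control group (median 103) and from 76.9 CPM to 190 CPM in the cryoablation group (median 99.4). Its groups overlapped, with 4 of 8 cryoablation tumors above the control median. The log2 fold change was -0.08 (SE 0.25, 95% interval -0.56 to 0.40, edgeR adjusted p = 0.903; exact permutation test, p = 0.962).

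Ccl3 and Ccl4, the macrophage inflammatory proteins 1α and 1β, were the 2 least abundant ligands. Ccl3 ran from 1.79 CPM to 12.5 CPM in the control group (median 5.06) and from 1.79 CPM to 33.6 CPM in the cryoablation group (median 4.24). Cryo 7 alone held the high value, and the other 7 cryoablation tumors lay at or below 4.82 CPM, under the control median. The log2 fold change of 0.40 (SE 0.52, 95% interval -0.61 to 1.42, edgeR adjusted p = 0.795; exact permutation test, p = 0.852) rested on that tumor. Without Cryo 7 it was -0.63 (SE 0.32, unadjusted p = 0.0631, edgeR adjusted p = 0.470), and under DESeq2 with all tumors -0.57. Ccl4 ran from 1.42 CPM to 10.5 CPM in the control group (median 5.15) and from 2.09 CPM to 12.4 CPM in the cryoablation group (median 5.56). Cryo 7 and Cryo 4 (12.3 CPM) were highest and Con 1 lowest, with the groups overlapping. Its log2 fold change was 0.06 (SE 0.40, 95% interval -0.72 to 0.83, edgeR adjusted p = 0.960; exact permutation test, p = 0.983), against -0.78 under voom (unadjusted p = 0.0385, limma adjusted p = 0.481).

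Ccl5, also called RANTES and made by T and NK cells as well as by myeloid cells, ran from 8.96 CPM to 156 CPM in the control group (median 41.4) and from 14.0 CPM to 84.4 CPM in the cryoablation group (median 28.9). Its cryoablation tumors fell to 2 sides of a gap, with 4 (Cryo 2, 3, 4 and 5) at 39.5 to 84.4 CPM and 4 (Cryo 1, 6, 7 and 8) at 14.0 to 18.2 CPM. Of the control tumors, Con 4 was highest and Con 1 lowest, so that the control range enclosed both sides. The log2 fold change was -0.29 (SE 0.49, 95% interval -1.26 to 0.67, edgeR adjusted p = 0.830; exact permutation test, p = 0.713). It was 0.15 without Con 4, -0.80 under voom (unadjusted p = 0.0392, limma adjusted p = 0.483) and -1.22 without Cryo 2, 4 and 5 (unadjusted p = 0.0348, edgeR adjusted p = 0.941). The 10 T and NK cell markers summed to 136 CPM in Cryo 2 and 125 CPM in Cryo 5, against 27.5 to 63.5 CPM in the other 6 cryoablation tumors, and their part in the Ccl5 values was not tested.

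**Figure D3:**
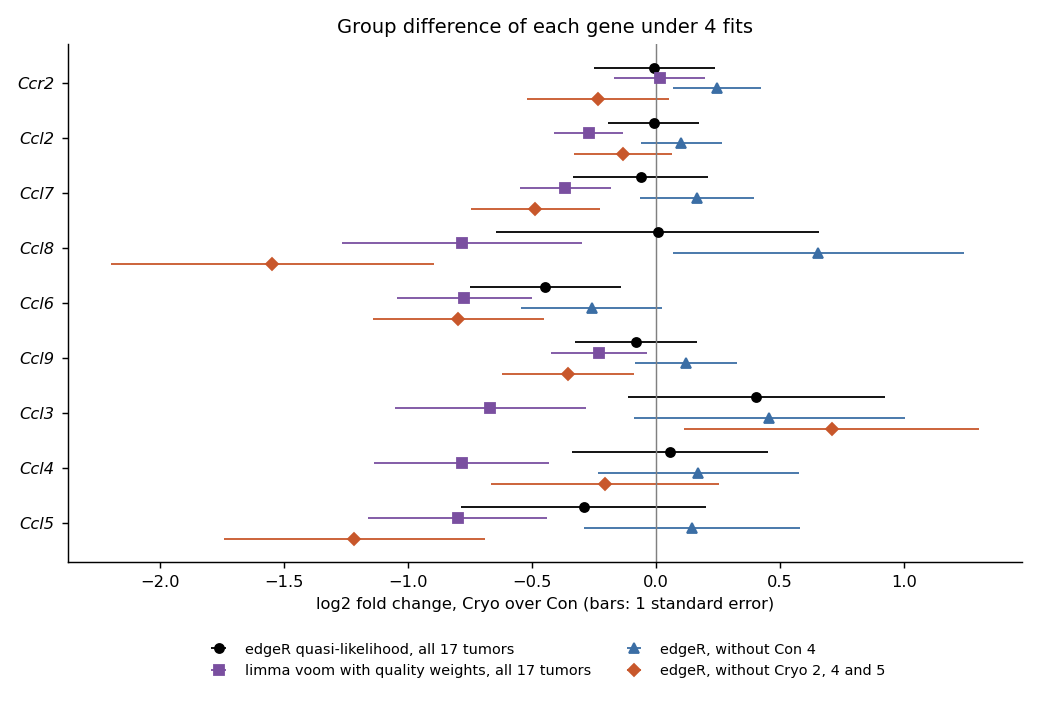
Points show the log2 fold change of Cryo over Con (x axis) of each gene (y axis), with bars of 1 standard error, under edgeR with all 17 tumors, limma's voom with quality weights, edgeR without Con 4, and edgeR without Cryo 2, 4 and 5. Ccl8 moves from 0.01 to 0.65 or -1.55 with the tumors left out, whereas Ccl2 stays between -0.27 and 0.10 in these 4 fits.

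The spread between tumors within a group was large for several of these genes and was not shown to differ between the groups. The SD of log2 CPM over the 17 tumors was 1.41 for Ccl8, 1.09 for Ccl5, 0.98 for Ccl3 and 0.89 for Ccl4, which placed them at percentiles 99.4, 98.1, 96.9 and 95.1 of the genes tested. Ccl2, with an SD of 0.38, lay at percentile 54.0. The mean absolute deviation from the group median of log2 CPM differed by -0.12 (Ccl9) to 0.20 (Ccl3) between Cryo and Con, with exact permutation p from 0.498 to 0.885. The same few tumors set the ends of the range. Con 4 had the highest value of all 17 tumors for 7 of the 9 genes, and Cryo 4 was among the 3 highest for 7. At the low end, Con 1 and Con 6 were among the 3 lowest for 6 genes each, and Cryo 1 and Cryo 8 for 5 each.

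Most pairs of the 9 genes varied together across tumors. Of the 36 pairs, 35 had a positive Pearson correlation of log2 CPM over the 17 tumors, and 27 had an adjusted p under 0.05 (100000 permutations, Benjamini-Hochberg over the 36 pairs). By Spearman's rho the count was 22, with the 2 tumors farthest from the median of the first gene left out 22, and without Cryo 2, 4 and 5 it was 20. With each value taken as a deviation from its group mean, it was 27, so the covariation was present within the groups. The share of passing pairs among all genes tested is not given, so these counts do not show covariation particular to the 9 genes.

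By Pearson's r over all 17 tumors, the highest values were those of the pairs among Ccl6, Ccl8 and Ccl9. Ccl8 and Ccl9 had r = 0.925 (rho = 0.887; permutation test, adjusted p = 0.00012 and 0.00024), and r = 0.864 without Con 4 and Cryo 4. Ccl6 and Ccl9, whose windows are printed above, had r = 0.923 (rho = 0.939; permutation test, adjusted p = 0.00012 and 0.00018), and r = 0.854 without Con 6 and Con 4. Ccl6 and Ccl8 had r = 0.886 (rho = 0.850; permutation test, adjusted p = 0.00012 and 0.000309), and r = 0.806 without the same 2 tumors. Ccl5 and Ccl7 joined these 3 genes, and the 10 pairs among Ccl5, Ccl6, Ccl7, Ccl8 and Ccl9 all passed the test in each of the settings named above. The order of the pairs depended on the measure. By rho, Ccl5 and Ccl8 (0.904) came after Ccl6 and Ccl9, and with the 2 farthest tumors left out, Ccl2 and Ccl3 had the highest r.

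Ccl2, Ccl3 and Ccl4 were also correlated with one another, Ccl4 with the other ligands too, and Ccl2 with all of these but Ccl5. Ccl2 and Ccl5 had r = 0.490 (rho = 0.466; permutation test, adjusted p = 0.0600 and 0.0759), and r = 0.221 without Con 4 and Cryo 4. Ccl2 and Ccl4 had r = 0.840 (rho = 0.868; permutation test, adjusted p = 0.0002 and 0.00027), and r = 0.836 without Con 4 and Cryo 4. Ccl3 and Ccl4 had r = 0.791 (rho = 0.799; permutation test, adjusted p = 0.000295 and 0.00054), and r = 0.838 without Cryo 7 and Con 3. Ccl2 and Ccl3 had r = 0.719 (rho = 0.833; permutation test, adjusted p = 0.00281 and 0.000458), and r = 0.925 without Con 4 and Cryo 4. Ccl3 was only loosely tied to Ccl5, Ccl6, Ccl7, Ccl8 and Ccl9, with r from 0.114 to 0.364, 0 of 5 past the test (2 by rho, Ccl6 and Ccl7). Without Cryo 7 and Con 3, those 5 values rose to between 0.525 and 0.717, so that the loose tie rests on these tumors. Ccl2 and Ccl7, neighbours in the table, had r = 0.826 (rho = 0.767; permutation test, adjusted p = 0.0003 and 0.00136), and r = 0.592 without Con 4 and Cryo 4. Ccl2 also passed the test with Ccl9 (r = 0.723), Ccl6 (0.633) and Ccl8 (0.584), and the 3 values fell to 0.417, 0.425 and 0.177 without the same tumors, where none passed. Ccl4 passed with Ccl7 (r = 0.720), Ccl9 (0.670), Ccl6 (0.647), Ccl5 (0.631) and Ccl8 (0.558), of which Ccl5 and Ccl8 did not pass without Con 1 and Cryo 8.

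The pairs were also grouped by place on chromosome 11. The median r was 0.826 over the 3 pairs within the stretch of Ccl2, Ccl7 and Ccl8, 0.659 over the 10 pairs within the stretch from Ccl5 to Ccl4, and 0.723 over the 15 pairs between the stretches. These are descriptions, since the pairs share genes and tumors.

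Ccr2 passed the test with 5 of the 8 ligands (Ccl5, Ccl6, Ccl7, Ccl8 and Ccl9), and Ccl2 was not among them. Of these, 1 (Ccl5) passed by Spearman's rho and without the 2 farthest tumors, and 0 passed without Cryo 2, 4 and 5. With Ccl2 it had r = 0.382 (rho = 0.248; permutation test, adjusted p = 0.162 and 0.355), and r = -0.25 without Con 4 and Cryo 4. With Ccl7 it had r = 0.565 (rho = 0.314; permutation test, adjusted p = 0.0288 and 0.254), but r = -0.011 without the same 2 tumors, so the relation rests on them. With Ccl5 it had r = 0.614 (rho = 0.532; permutation test, adjusted p = 0.0126 and 0.0488), and r = 0.580 without Con 1 and Con 4. Without Cryo 2, 4 and 5 this r was 0.555 (permutation test, adjusted p = 0.0655).

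**Figure D4:**
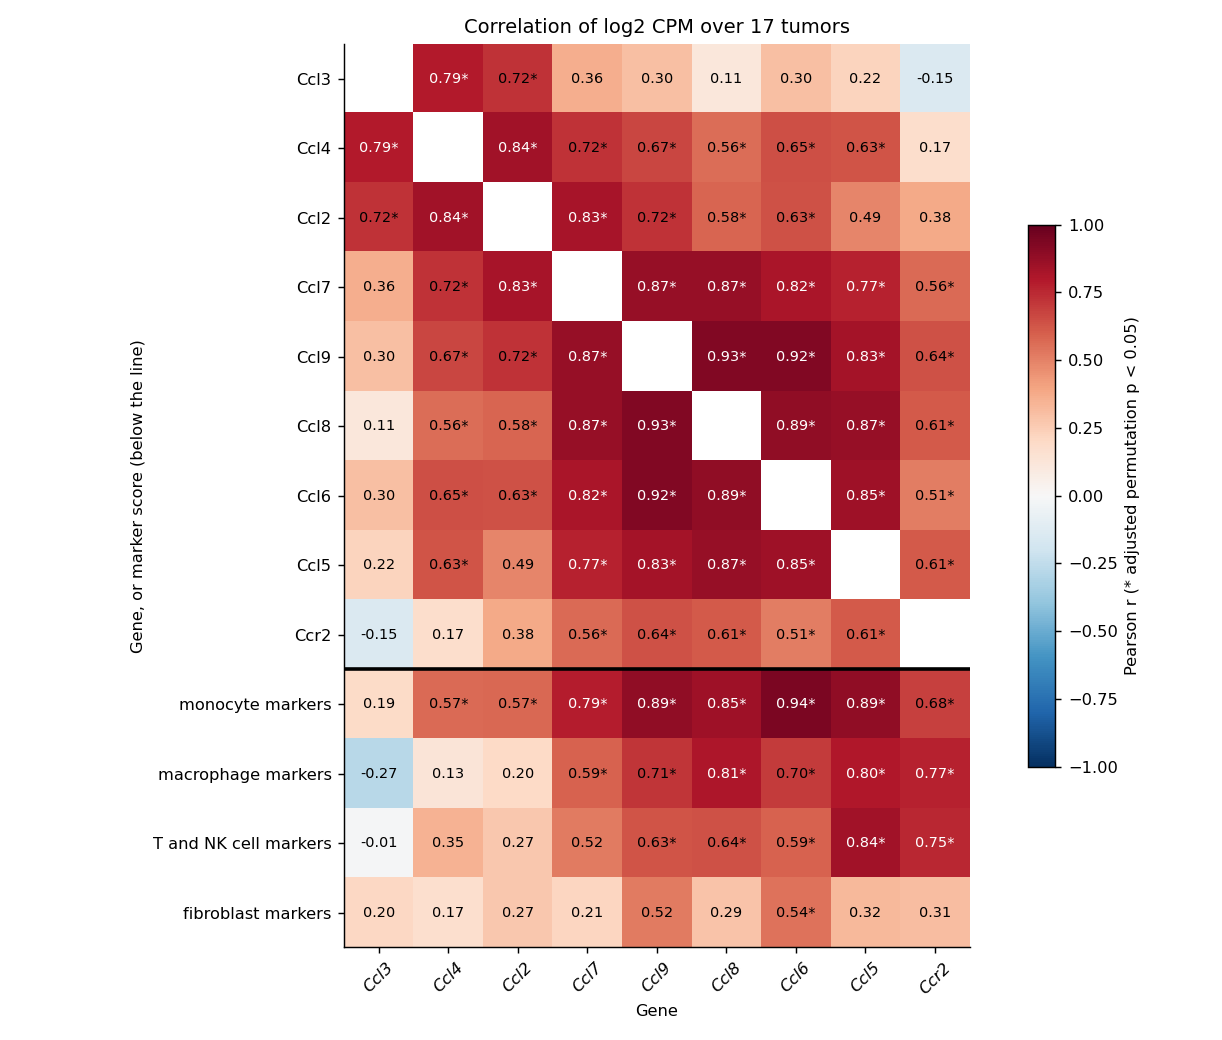
The heat map gives Pearson's r of log2 CPM over 17 tumors between the 9 genes (both axes) and, below the line, with the mean log2 CPM of 4 marker lists. Ccl7, Ccl9, Ccl8, Ccl6 and Ccl5 form a dark block (r from 0.766 to 0.925) that continues into the monocyte markers, and Ccl3 shows r = -0.27 with macrophage markers.

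Against cell type markers, Ccl5, Ccl6, Ccl7, Ccl8, Ccl9 and Ccr2 passed the test with both the macrophage and the monocyte score, and Ccl2 and Ccl4 with the monocyte score only. Scores were the mean log2 CPM of a list, and p-values were adjusted over 36 pairs of a gene and a score, of which 20 passed (15 by Spearman's rho, 13 without the 2 farthest tumors and 25 without Cryo 2, 4 and 5). The monocyte score, over Ly6c2, Chil3, Plac8, F13a1 and Ms4a4c, had r = 0.942 with Ccl6 (rho = 0.919; permutation test, adjusted p = 9e-05 for each; 0.964 without Con 4 and Cryo 7). With Ccl9 it had r = 0.888 (rho = 0.904; permutation test, adjusted p = 9e-05 for each; 0.858 without the same tumors). With Ccl2 it had r = 0.572 (rho = 0.517; permutation test, adjusted p = 0.0316 and 0.0705; 0.689 without the same tumors), and with Ccl4 0.565 (rho = 0.451; permutation test, adjusted p = 0.0316 and 0.119; 0.821 without them). Ccr2 lost both calls without Con 4 and Cryo 7, where its r fell from 0.683 to 0.277 with the monocyte score and from 0.770 to 0.480 with the macrophage score. By rho it did not pass with the monocyte score (0.520; permutation test, adjusted p = 0.0705). Ccl7 lost its call with the macrophage score without Con 4 and Cryo 7 (r from 0.592 to 0.538; permutation test, adjusted p = 0.101). The macrophage score, over 10 genes with Adgre1, Csf1r and C1qa among them, had r = 0.810 with Ccl8 (rho = 0.926; permutation test, adjusted p = 0.000495 and 9e-05; 0.807 without Cryo 7 and Con 4). Its r with Ccl2 was 0.196 (rho = 0.412; permutation test, adjusted p = 0.488 and 0.159; 0.328 without the same tumors). With Ccl3 it was -0.27 (rho = 0.125; permutation test, adjusted p = 0.370 and 0.711; 0.121 without the same tumors). The difference between these correlations was not tested.

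The T and NK cell score had its highest r with Ccl5, at 0.838 (rho = 0.760; permutation test, adjusted p = 0.000144 and 0.00236; 0.757 without Con 4 and Cryo 7). With Ccr2, which some T and NK cells also carry, it had r = 0.753 (rho = 0.605; permutation test, adjusted p = 0.00212 and 0.0304), but r = 0.491 without the same tumors (adjusted p = 0.132, permutation test). The T and NK cell score also passed with Ccl6 (r = 0.593), Ccl8 (0.637) and Ccl9 (0.632). None of these passed without Con 4 and Cryo 7. Ccl5 had a higher r with the monocyte score, at 0.887 (rho = 0.831, and r = 0.839 without the same tumors). Its rho with the macrophage score (0.873) was also above that with the T and NK cell score, though its r was below. These differences were not tested. The fibroblast score had 1 of 9 correlations past the test, with Ccl6 (r = 0.540; permutation test, adjusted p = 0.0444), and r = 0.120 without Con 4 and Con 7. Without Cryo 2, 4 and 5, 6 of 9 passed, with r = 0.915 for Ccl9, 0.811 for Ccl8, 0.792 for Ccl6, 0.729 for Ccl5, 0.638 for Ccl7 and 0.633 for Ccr2 (permutation test, adjusted p from 7e-05 to 0.0336). All genes of a tumor share its library and depth, and r over bulk tumors does not say which cell made the mRNA. The share of all genes tested that would pass with these scores is not given.

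**Figure D5:**
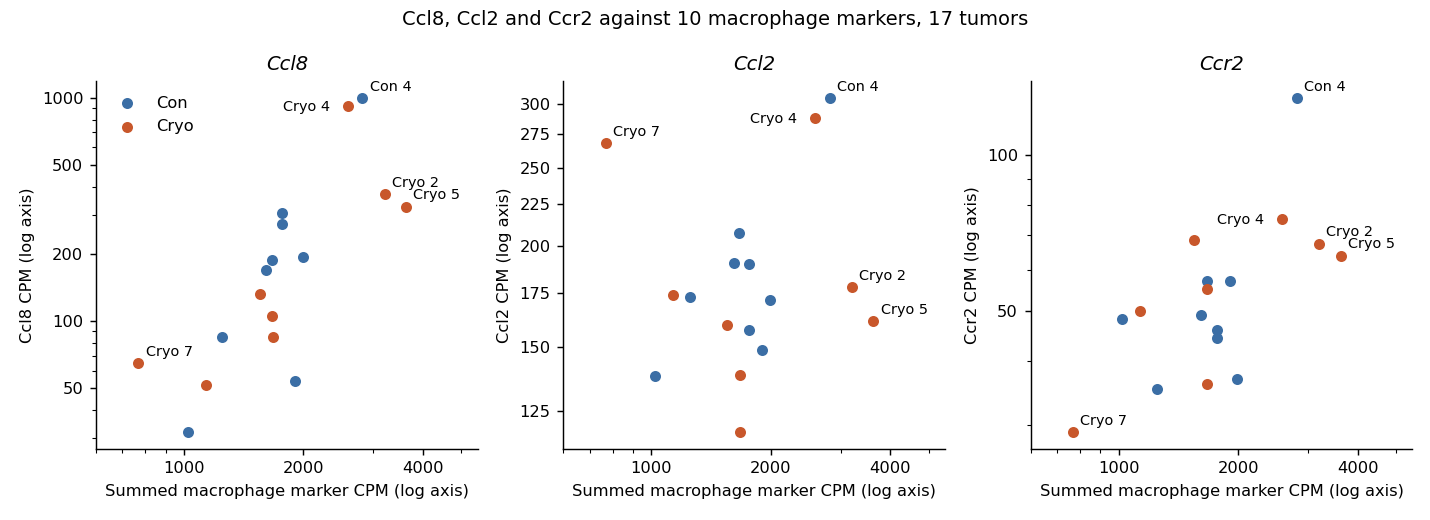
Each point is a tumor (blue Con, n = 9; orange Cryo, n = 8), with the summed CPM of 10 macrophage markers on the x axis and the CPM of Ccl8, Ccl2 or Ccr2 on the y axis, all on log scales. Ccl8 rises along the marker sum, whereas Cryo 7 has the lowest marker sum (768 CPM) and the third-highest Ccl2 (268 CPM).

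Genes most like each member, named as the 3 with the highest Pearson r of log2 CPM over the 17 tumors among tested genes with a mean of at least 10 counts, are given here as a description. For Ccl2 these were Sod2 (r = 0.949), the mitochondrial superoxide dismutase, Mcl1 (0.883) and Il13ra2 (0.865). For Ccl3 they were Cxcl2 (0.893), a neutrophil attractant, Osmr (0.878), the oncostatin M receptor, and Ptgs2 (0.873), the inducible cyclooxygenase. For Ccl4 they were Csrnp1 (0.886), Sod2 (0.882) and Tnfrsf9 (0.849). For Ccl7 they were Srgn (0.914), Ch25h (0.902) and Tmem189 (0.902).

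For Ccl8 the 3 were Wfdc17 (0.949), Ccl11 (0.935) and Ccl24 (0.931), of which the latter pair are eotaxins that attract eosinophils through CCR3. Ccl11 also stood among those of Ccl9 (0.976), with Ccr1 (0.965), the receptor of CCL9, and Hsd11b1 (0.952). It stood again among those of Ccl6 (0.922), with Rtn4rl2 (0.938) and Mgst1 (0.917). For Ccl5 they were Ly6i (0.954), Il27 (0.945), a cytokine of activated macrophages, and Fcgr4 (0.932), an activating Fc receptor of myeloid cells. For Ccr2 they were Socs2 (0.925), Treml2 (0.907) and Adap1 (0.901). These r values were picked as the highest of all genes and carry no p.

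Other genes of the chemokine system were counted in the same way, beside 4.91% of all genes tested with an unadjusted p under 0.05. Of 16 other CC ligand genes, 15 were in the table and 9 were tested, with 1 higher and 0 lower at an unadjusted p under 0.05, and 0 at an adjusted p. The gene higher was Ccl27a, a skin chemokine, with 8.99 to 20.5 CPM in the control group (median 11.3) and 10.3 to 26.5 CPM in the cryoablation group (median 16.6). Its log2 fold change was 0.48 (SE 0.22, unadjusted p = 0.0393, edgeR adjusted p = 0.728). Ccl12 and Ccl11, which lie in the same cluster as Ccl2 and Ccl7, had log2 fold changes of 0.09 (SE 0.39) and -0.30 (SE 0.45), with edgeR adjusted p of 0.928 and 0.812. Ccl12, a further CCR2 ligand of the mouse, was highest in Cryo 4 at 118 CPM, and its median was 32.8 CPM in the control group and 22.4 CPM in the cryoablation group.

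Among 14 CC receptor genes other than Ccr2, 7 were tested, 0 were higher and 1 was lower at an unadjusted p under 0.05, beside 4.91% of all genes. That was Ccr9, the receptor of gut-homing lymphocytes, at 0.238 to 2.14 CPM in the control group and 0.241 to 0.772 CPM in the cryoablation group (log2 fold change -1.03, SE 0.35, unadjusted p = 0.00839, edgeR adjusted p = 0.728). Ccr1, Ccr3 and Ccr8 did not pass the test. Ccr1, of CCL3, CCL5, CCL6 and CCL9, had medians of 51.9 CPM and 47.1 CPM (log2 fold change -0.10, SE 0.16). Ccr8, of CCL8, was scarce, with medians of 0.658 CPM and 0.726 CPM (-0.33, SE 0.39), and so was Ccr3, with 1.93 CPM and 1.09 CPM (-1.10, SE 0.69). Their edgeR adjusted p ranged from 0.728 to 0.816.

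Of 11 other attractants, growth factors and receptors of monocytes and macrophages, 10 were tested and 0 passed an unadjusted p under 0.05 in either direction, beside 4.91% of all genes. The largest absolute changes were those of Cxcl12 (log2 fold change -0.99, SE 0.55, edgeR adjusted p = 0.728), a stromal chemokine, and C5ar1 (-0.27, SE 0.17, edgeR adjusted p = 0.728), a complement receptor. Of 6 genes of signalling under chemokine receptors, 0 of 6 passed, and the largest absolute changes were -0.33 (SE 0.23) for Elmo1 and -0.31 (SE 0.21) for Dock2, a pair that activates Rac in migrating cells. Their edgeR adjusted p were 0.733 and 0.732.

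Some markers of other cell types differed between the groups at an unadjusted p under 0.05, as did 4.91% of all genes tested. At an edgeR adjusted p under 0.05, 0 of these markers did. Of the tested markers, 4 of 4 erythroid genes, 2 of 4 adipocyte genes, 2 of 4 neutrophil genes and 1 of 3 keratinocyte genes were higher at an unadjusted p under 0.05, and 1 of 10 macrophage genes, Adgre1, was lower. The T and NK cell, monocyte, dendritic cell, fibroblast, endothelium, skeletal muscle and colon epithelium lists had 0 in either direction. The macrophage sum ran from 1022 to 2817 CPM in the control group and from 768 to 3630 CPM in the cryoablation group, with all 10 markers detected. Beyond the fit with the macrophage score as a covariate, the part of these markers in the chemokine values was not tested.

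Most of these calls were lost without Cryo 2, 4 and 5, a fit with fewer tumors. In it, 1 of 4 erythroid genes (Alas2, a heme synthesis enzyme of red cell precursors) was higher at an unadjusted p under 0.05, and the adipocyte, neutrophil, keratinocyte and macrophage lists had 0 in either direction. Some log2 fold changes shrank, as those of the erythroid gene Hba-a1 (1.75 to 0.44) and of Krt10 (0.73 to 0.14). Others kept much of their size, as those of S100a9 (1.61 to 1.40), S100a8 (1.34 to 0.99) and Adgre1 (-0.69 to -0.64). A lost call therefore does not by itself show that a difference rested on these tumors. The erythroid sum was 91.5 to 175 CPM in the 3 tumors and 25.1 to 55.3 CPM in the other 5 cryoablation tumors. Ccl27a was no longer higher (log2 fold change 0.07, SE 0.20), and 4 of 9 other CC ligand genes (Ccl12, Ccl17, Ccl22 and Ccl24) were lower, as were 2 of 9 receptor genes (Ccr7 and Ccr9), 1 of 5 monocyte genes (Chil3) and 1 of 10 T and NK cell genes (Cd3d). Of all genes tested without these 3 tumors, 2.45% had an unadjusted p under 0.05 in either direction. With edgeR, 0 genes of any list passed an adjusted p in this setting.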

How the data were processed

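Bulk RNA-seq of 17 distant MC38 tumors was analysed, 9 of the control and 8 of the cryoablation group by their labels (the study's text gives the sizes the other way round), and 0 value columns had no label. The authors deposited, in 1 table, a read count per gene and tumor without normalization, and FPKM computed from these counts. Per the labels, total RNA was extracted from frozen tumors and libraries were made with a SMARTER mRNA-Seq kit. The aligner, counter and strandedness are not given in the sources used here, and the submitters' processing notes name GRCm38 and mm10. Without strand, reads of overlapping genes cannot be told apart.

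The 9 genes and all marker and pathway lists were chosen with earlier results of these data known. Genes named from a list were those at an unadjusted p under 0.05, or else the 2 with the largest absolute log2 fold change among tested genes, plus the receptors of the 8 ligands, Ccl12 and Ccl11.

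Counts were normalized by TMM, filtered with filterByExpr and fitted over all genes with edgeR 4.0.16 in R 4.3.3 (quasi-likelihood F test, group only), the tool the study's methods name. The SE was obtained as the fold change on the log2 scale over the root of the F statistic. The 95% intervals are approximate. Log2 CPM values (prior count 2) were tested by two-sided exact permutation over all 24310 divisions of the tumors into 9 and 8 (smallest possible p 4.11e-05). Correlations used 100000 permutations (smallest p 1e-05) in Python 3.11.15 with NumPy 2.4.6. Deposited FPKM were used for levels between genes and equalled count per listed length and total count. Alternatives were DESeq2 1.42.0, limma 3.58.1 voom with quality weights, other normalizations and filters, a gene length offset (natural spline, 4 degrees of freedom), a macrophage score covariate, a replicate block, and tumors left out. The scripts were tested on simulated data. A count of 0 allows up to 3 counts, and such limits cover counting error only. The values of 1 gene of the receptor list are not reported here.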

Additional observations from a re-analysis of the deposited data

Results flagged for a closer look

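Within each group, the highest and the lowest tumor of each gene were compared with the rest by Dixon's ratio on log2 CPM, which is the gap to the nearest tumor divided by the range of the group. Of 18 combinations of a gene and a group, 2 exceeded the 95% critical value, and chance alone passes about 1 in 20.

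Ccl3 was far higher in Cryo 7 than in the other 7 cryoablation tumors (ratio 0.669), at 33.6 CPM against 1.79 to 4.82 CPM. In the same tumor Ccl2 was 268 CPM and Ccl4 12.4 CPM, while the 10 macrophage markers summed to 768 CPM, the lowest of the 17 tumors. The log2 fold change of Ccl3 turned from 0.40 to -0.63 without it.

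Ccr2 was far higher in Con 4 than in the other 8 control tumors (ratio 0.627), at 129 CPM against 35.2 to 57.1 CPM. Con 4 also had the highest sum of the 5 monocyte markers (516 CPM), of the 10 T and NK cell markers (147 CPM) and of the 15 other CC ligand genes (309 CPM).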

How the results depend on the processing

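At an adjusted p under 0.05, the count of genes called was 0 under every alternative run. With tumors left out in turn, 252 (without cryoablation replicate 2) to 1388 (without cryoablation replicate 3) genes had an unadjusted p under 0.05, against 639, and 34 to 165 also had an absolute log2 fold change over 1, against 64. Of the 9 chemokine genes, 0 to 1 had an unadjusted p under 0.05, the 1 being Ccl6 without Con 6 (-0.58). Each of the 9 genes had at least 19 counts in every tumor, and Ccl3 and Ccl4 had the fewest (lowest 24 and 19), so counting error weighs most there. The largest standard error was that of Ccl8 (0.65 on the log2 scale), which had at least 533 counts.

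Genes at an unadjusted p under 0.05 numbered 1312 under voom, 881 under DESeq2, 992 without a filter, 1222 with the macrophage score, 707 with the gene length offset, 592 with this offset and the block and 325 without Cryo 2, 4 and 5. Those that also had an absolute log2 fold change over 1 numbered 432 without a filter, 32 with the macrophage score, 39 with the gene length offset and 29 with this offset and the replicate block. Of the 9 genes, 3 had an unadjusted p under 0.05 under voom (Ccl4, Ccl5, Ccl6), 3 without Cryo 2, 4 and 5 (Ccl5, Ccl6, Ccl8), 1 with the length offset (Ccl6) and 2 with this offset and the block (Ccl6, Ccl7), all lower. Of the 36 correlations with scores, 13 passed without the 2 farthest tumors and 25 without Cryo 2, 4 and 5, against 20.

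Log2 fold changes near 0 turned sign as follows, and the cause was not tested. Under voom they were -0.67 (Ccl3), -0.78 (Ccl4), -0.78 (Ccl8) and 0.015 (Ccr2). Under DESeq2 they were -0.57 (Ccl3) and 0.00041 (Ccr2), and with its size factors in edgeR 4.7e-05 (Ccr2). Ccl8 was -0.025 with upper-quartile normalization and -0.013 without a filter. With the macrophage score as a covariate they were 0.024 (Ccl2), -0.13 (Ccl3), 0.074 (Ccl7), 0.066 (Ccl9) and 0.099 (Ccr2). With the gene length offset they were -0.26 (Ccl4), -0.82 (Ccl8) and 0.13 (Ccr2). Without Cryo 2, 4 and 5 they were -0.21 (Ccl4) and -1.55 (Ccl8).

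The replicate numbers did not pair the tumors, since the correlation of same-numbered deviations ran from -0.51 to 0.64 and exceeded 0.1 in 4 of 8 pairs, with 2 of 8 tumors closest to their own number. With the replicate block, 446 genes had an unadjusted p under 0.05, 33 of them with an absolute log2 fold change over 1, and 0 passed an adjusted p. The log2 fold changes with the block were -0.21 (Ccl3), -0.0021 (Ccl4) and 0.016 (Ccr2), and with the block and the length offset -0.58 (Ccl3), -0.39 (Ccl4), -0.31 (Ccl8) and 0.11 (Ccr2).

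With each tumor left out in turn, log2 fold changes ranged from -0.13 to 0.10 (Ccl2), -0.63 to 0.64 (Ccl3), -0.17 to 0.19 (Ccl4), -0.53 to 0.15 (Ccl5), -0.31 to 0.16 (Ccl7), -0.65 to 0.65 (Ccl8), -0.23 to 0.12 (Ccl9) and -0.081 to 0.25 (Ccr2). The differences in mean log2 CPM ranged from -0.13 to 0.061 (Ccl2), -0.51 to 0.085 (Ccl3), -0.21 to 0.19 (Ccl4), -0.46 to 0.056 (Ccl5), -0.24 to 0.087 (Ccl7), -0.37 to 0.32 (Ccl8), -0.14 to 0.13 (Ccl9) and -0.030 to 0.21 (Ccr2). The differences in spread ranged from -0.13 to 0.32 (Ccl3), -0.035 to 0.21 (Ccl4), -0.038 to 0.32 (Ccl5), -0.19 to 0.047 (Ccl6), -0.11 to 0.15 (Ccl7), -0.21 to 0.27 (Ccl8) and -0.072 to 0.17 (Ccr2).

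The differences in mean log2 CPM of Ccl4 and Ccr2 were -0.090 and -0.059 on total counts alone, and -0.29 and -0.18 without Cryo 2, 4 and 5. Without these tumors the level of Ccl5 over Ccl9 was -0.11 on the log2 scale, and r of Ccl3 with the T and NK cell score was 0.041. Without the 2 farthest tumors, r turned to -0.25 (Ccl2 and Ccr2), 0.316 (Ccl3 and Ccr2) and -0.011 (Ccl7 and Ccr2). It turned to 0.121 for Ccl3 with the macrophage score and 0.489 for Ccl3 with the T and NK cell score. With the fibroblast score it turned to -0.19 (Ccl2), -0.013 (Ccl4), -0.075 (Ccl5), -0.39 (Ccl7), -0.22 (Ccl8) and -0.15 (Ccr2). Spearman's rho was 0.125 and 0.292 for Ccl3 with the macrophage and T and NK cell scores, and -0.015 for Ccr2 with the fibroblast score.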

Other observations

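The 5 erythroid genes summed to 6.16 to 74.6 CPM in the control group (median 12.3) and 25.1 to 175 CPM in the cryoablation group (median 47.2, or 32.9 without Cryo 2, 4 and 5). Hba-a1, an alpha globin gene, had a log2 fold change of 1.75 (SE 0.56, edgeR adjusted p = 0.728), and 0.44 (SE 0.51) without these tumors. The 5 adipocyte genes summed to 5.68 to 72.7 CPM (median 14.5) and 1.91 to 138 CPM (median 74.1), with Cfd, the gene of adipsin, at a log2 fold change of 1.61 (SE 0.67, edgeR adjusted p = 0.728), and 0.70 (SE 0.73) without them. The neutrophil gene S100a9 had medians of 1.79 CPM and 6.15 CPM (log2 fold change 1.61, SE 0.65, edgeR adjusted p = 0.728) and was highest in Cryo 7, the tumor with the highest Ccl3. Of the other tested neutrophil genes, S100a8 had a log2 fold change of 1.34, Retnlg 0.26 and Csf3r -0.51. Ly6g, which defines neutrophils, had at most 2 counts in any tumor.

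The 10 macrophage markers had log2 fold changes from -0.69 (SE 0.29) for Adgre1, which encodes F4/80, to 0.52 (SE 0.35) for C1qa, a complement gene, with edgeR adjusted p from 0.728 to 0.983. The medians of C1qa were 419 CPM and 415 CPM. Adgre1 was 239 CPM in Con 4.

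Of the CC ligand genes that did not pass the filter, Ccl20 had at most 2 counts and Ccl27b at most 4 in any tumor, and Ccl21b and Ccl26 had 0 counts in all 17. A count of 0 allows up to 3 counts per tumor.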
